A study of Mus musculus with 18 samples.

Results

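Transcript levels of Atf4 and 9 genes known as amino acid stress genes were followed across 18 mRNA-seq samples of P19 cells, which are mouse embryonic carcinoma cells from a teratocarcinoma. The members were the rows of the deposited table whose symbol was Atf4, Ddit3, Asns, Chac1, Trib3, Sesn2, Psat1, Phgdh, Shmt2 or Vldlr, 10 genes of 55450. The symbol Ddit3 occurred in 2 rows, and the other of them (ENSMUSG00000116429.1) was listed at 0 in every sample and was left aside. Values were TPM, a level per transcript length that sums to 1000000 in each sample, so levels of different genes can be compared but read depth is unknown.

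WT cells, Dicer (+/+), carry an intact pair of alleles of Dicer1, the RNase that cuts miRNA precursors. HetKO cells, Dicer (+/-), carry a truncating loss-of-function allele made with CRISPR, and HM cells, Dicer (HM/-), were made from HetKO cells by editing the remaining full-length allele to a hotspot mutation in the RNase IIIb domain. HM and HetKO therefore share the truncated allele, and no group received a further treatment or agent. Each genotype was represented by a single cell line with 6 samples, so genotype and clone cannot be told apart. Nothing in the sources used here says that the 6 samples of a line were separate cultures, and p-values then measure the spread between these samples, which may be technical.

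Atf4 encodes a bZIP transcription factor of the integrated stress response. When amino acids run short or the endoplasmic reticulum is stressed, kinases phosphorylate the translation factor eIF2, general translation falls, and the Atf4 mRNA is translated more efficiently through its upstream open reading frames. ATF4 protein is thus set largely by translation, which TPM do not measure, and its known target genes take up, make and conserve amino acids or, through CHOP (Ddit3) and the pseudokinase Trib3, limit the response. Atf4 (ENSMUSG00000042406.8) lies on chromosome 15 from 80255184 to 80257541 in GRCm38, on the plus strand. Ddit3 (ENSMUSG00000025408.15) lies on chromosome 10 from 127290774 to 127296288, plus strand, where its exons overlap those of Mars and Gm4189 on the other strand. Mean TPM over the 18 samples was 388 for Mars and 28.0 for Gm4189, and whether counting used strand is not given in the sources used here, so the low Ddit3 values are uncertain. Shmt2 (ENSMUSG00000025403.5, chromosome 10 from 127517123 to 127522444, minus strand) likewise overlaps Ndufa4l2, whose mean was 8.06 TPM.

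C/EBP-ATF response elements, bound by ATF4 with a C/EBP partner, are known in promoters of several of these genes, and the matches are shown because ATF4 targets are known for this element, although most members had none in the window. The core TGATGNAA was searched on both strands in RefSeq promoter windows (GRCm38.p6) that run from 250 bases before to 50 bases after a start site. It was found for 4 of the 10 members, against 2.5% of 9832 genes that had a window and a mean of 1 TPM or more, and 3.97% of all 32851 windows. Each line gives 30 bases on the gene's strand with the match in capitals.
Asns, chr6:7693214-7693243: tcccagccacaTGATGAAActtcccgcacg
Chac1, chr2:119351038-119351067: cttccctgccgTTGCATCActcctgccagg
Trib3, chr2:152344028-152344057: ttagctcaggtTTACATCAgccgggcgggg
Vldlr, chr19:27216809-27216838: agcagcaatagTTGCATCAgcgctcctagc
The Asns match reads on the gene's own strand, 23 bases before the start, and the other three read on the opposite strand. The Chac1 match begins 193 bases before the start, the Vldlr match 200 bases before the later of its 2 RefSeq starts, and the Trib3 match 15 bases after the RefSeq start. A match is a run of letters and not a shown binding site, and the 6 members without a match were Atf4, Ddit3, Sesn2, Psat1, Phgdh and Shmt2. Among other genes, 11 of 35 listed ATF4 and CHOP targets and 5 of 13 cytosolic aminoacyl-tRNA synthetases with a window had a match, but 0 of 22 serine, glycine and one-carbon enzymes.

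Because Dicer products act on 3′ UTRs, the members' 3′ UTRs were also searched for the 7 bases that pair with miRNA seeds (bases 2 to 8), using 6 5p-miRNAs and 4 passenger 3p-miRNAs picked for this search. Other miRNAs, such as the passenger miR-26a-2-3p that the study also examined, were not searched. The mature sequences below, from RefSeq, have the seed in capitals. miR-16-5p shares the seed of miR-15b-5p, and miR-20b-5p that of miR-17-5p.
miR-15b-5p: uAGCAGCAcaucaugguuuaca
miR-17-5p: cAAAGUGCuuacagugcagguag
miR-26a-5p: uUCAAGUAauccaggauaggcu
Sites for the 6 5p-miRNAs, which were these 5 and miR-7a-5p, were found in 4 of the 10 members. The share was 47.9% of the 12062 genes that had a mean of 1 TPM or more and an annotated 3′ UTR. For each gene the longest annotated 3′ UTR was used. Vldlr had 4 sites in a 3′ UTR of 5091 bases, Chac1 had 3 in 791 bases, and Psat1 and Sesn2 had 1 each. Passenger 3p-miRNA sites were found in 2 members, Psat1 and Shmt2, against 37.7% of the 12062 genes. Atf4, Ddit3, Asns and Phgdh had short 3′ UTRs of 81, 197, 146 and 133 bases with no site, where the median over the 12062 genes was 1358 bases. The sites of Chac1, the member with 3 sites in a short 3′ UTR, and the only site of Sesn2 are shown with the match in capitals, with positions counted from the first base after the stop codon.
Chac1, base 57, miR-26a-5p seed: tcagtatgcagTACTTGAgatagacttgat
Chac1, base 182, miR-26a-5p seed: cccttactcacTACTTGAacctttatttat
Chac1, base 313, miR-15b-5p seed: aatccccccatTGCTGCTgccaattccaca
Sesn2, base 1265, miR-17-5p seed: accaccgacaaGCACTTTgcagagcaaaca

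Before the members, the libraries themselves were checked. Dicer1 TPM was 49.2 to 54.8 in WT, 42.9 to 53.8 in HetKO and 35.4 to 44.2 in HM, and TPM sum both alleles. All 10 listed embryonic carcinoma markers had a mean of at least 1 TPM in every line, with sums of 3353 to 4507 TPM per sample, of which Pou5f1 made up 1814 to 2244. Sall4 ran from 0.63 to 69.5 TPM and Dppa4 from 1.44 to 89.5 over the 18 samples. Of 17 markers of other cell types, 7 to 10 reached that level, with sums of 76.5 to 150 TPM per sample, and none was at 0 in all samples of a line. The mesoderm marker T ran from 0.94 to 110.46 TPM, and the part of such markers in the results was not tested. Some samples of a line were closer to each other than the rest, as measured by the robust SD of log2 differences over 683 genes with at least 200 TPM, a set that can include members. Replicates 1 and 4, 2 and 5, and 3 and 6 of WT and HetKO, and replicates 1 and 4, 2 and 3, and 5 and 6 of HM, were close to each other, and they are called alike pairs here. The robust SD was 0.0493 to 0.0746 within the WT pairs and 0.0730 to 0.205 over the other WT pairings, so these ranges overlap. In HetKO it was 0.051 to 0.0696 within pairs and 0.164 to 0.358 over the other pairings. In HM it was 0.0595 to 0.105 and 0.168 to 0.279, and neither HetKO nor HM ranges overlapped. The labels do not say what the samples of a pair share.

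Levels spanned about the same order in all lines. In WT the 10 genes ran from Psat1 at 375 ± 27.8 TPM (SD, n = 6), followed by Phgdh at 277 ± 21.3, Asns at 248 ± 50.3, Atf4 at 241 ± 50.5 and Shmt2 at 179 ± 15.4, to a lower group of Chac1 at 51.6 ± 32.4, Trib3 at 28.5 ± 15.9, Sesn2 at 22.9 ± 7.0, Vldlr at 19.4 ± 6.88 and Ddit3 at 14.95 ± 7.34 TPM. Only the steps from Psat1 to Phgdh and from Shmt2 to Chac1 had no overlap of WT samples, while neighbors elsewhere in the order overlapped. In HetKO Phgdh stood first at 454 ± 49.8 TPM, before Psat1 at 418 ± 86.3, with overlapping samples. In HM Atf4 and Shmt2, at 310.4 ± 33.1 and 226 ± 46.0 TPM, stood before Asns at 199.8 ± 45.9 (SD, n = 6), again with overlapping neighbors. In HetKO and HM, too, a gap without overlap separated the enzymes and Atf4 from Chac1 and the genes after it.

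**Figure D1:**
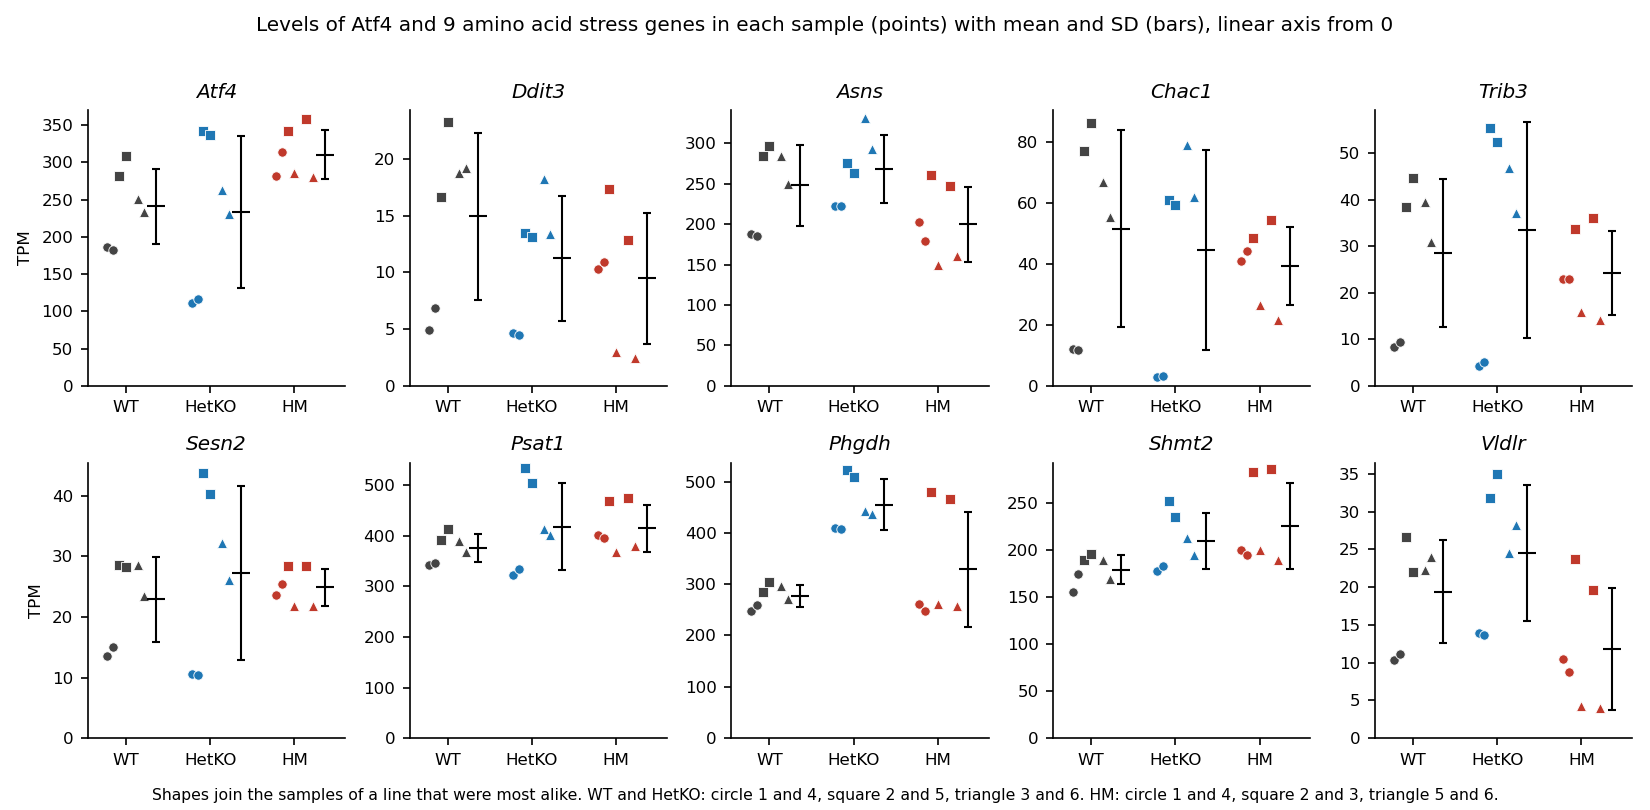
TPM of the 10 genes in WT, HetKO and HM cells on linear axes that start at 0, with a point for each sample, point shapes for alike pairs, and the mean and SD of 6 samples beside them. WT and HetKO replicates 1 and 4 (circles) sit low within their line for nearly every gene, and HM replicates 2 and 3 (squares) sit highest among the HM samples. Phgdh separates all HetKO from all WT samples.

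The order of samples within a line followed the alike pairs for most members. WT replicates 1 and 4 were the 2 lowest WT samples for 9 of the 10 genes, against 36.1% of all 10338 genes whose mean reached 5 TPM. HetKO replicates 1 and 4 were the 2 lowest HetKO samples for all 10 genes, against 14.5% of all genes. HM replicates 2 and 3 were the 2 highest HM samples for all 10 genes, against 21.8%, and HM replicates 5 and 6 the 2 lowest for 7 of 10, against 21%. The low pair carried the same numbers in WT and HetKO, but the numbers are not stated to mark shared cultures or runs.

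Chac1, which encodes a glutathione-degrading enzyme, had the widest relative range of the 10 genes in WT and HetKO, whereas Ddit3 and Vldlr had the widest in HM. Its TPM in replicates 1 and 4 was 12.2 and 11.7 in WT and 2.77 and 3.31 in HetKO, while the 4 other samples had 55.5 to 86.2 in WT and 59.5 to 78.95 in HetKO. The highest pair mean was 6.83 times the lowest in WT and 23.2 times the lowest in HetKO, against 2.13 times in HM, where values ran from 21.7 to 54.3. Trib3 followed the same pairs, with highest over lowest pair means of 4.71 in WT, 11.4 in HetKO and 2.32 in HM. Its HetKO samples 1 and 4 had 4.36 and 5.10 TPM where the others had 37.1 to 55.3. Ddit3 pair means differed 3.37-fold in WT, 3.43-fold in HetKO and 5.53-fold in HM, where replicates 5 and 6 had 2.98 and 2.49 TPM and the others 10.3 to 17.4. For Sesn2, an inhibitor of mTORC1 signaling, the ratios were 2.00, 4.01 and 1.31 in WT, HetKO and HM. Atf4 had ratios of 1.60, 2.97 and 1.23.

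On the log2(TPM + 1) scale, the SD of Chac1 within lines exceeded that of 99.0% of all genes in WT, 99.5% in HetKO and 93.4% in HM, and that of Trib3 exceeded 98.8%, 99.3% and 93.9%. Ddit3 (97% to 98.4%) and Vldlr (93.7% to 98.3%) were high in all 3 lines. Atf4 was at 89.4% in WT and 96.4% in HetKO but at 38.6% in HM, and Sesn2 was at 96.3%, 97.9% and 45.8%. Among the serine enzymes, Psat1 was at 34.8%, 72.8% and 41.4% and Shmt2 at 45.1%, 50.6% and 74.3%. Phgdh was at 36.9% in WT and 35.7% in HetKO but at 91.2% in HM, and Asns was at 89.6%, 57.6% and 81.2%. Within each line, Pearson's r between Atf4 and each of the 9 other genes was 0.73 to 1.00, and each r stands on 6 samples that share the alike pairs and their libraries. Across all 18 samples r ran from 0.09 for Phgdh to 0.89 for Sesn2. The listed ATF4 and CHOP targets leaned the same way, as both replicates were lowest for 26 of 39 in WT 1 and 4 and for 28 of 39 in HetKO 1 and 4, and highest for 25 of 39 in HM 2 and 3. These counts describe the libraries, and no test was run on them.

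**Figure D2:**
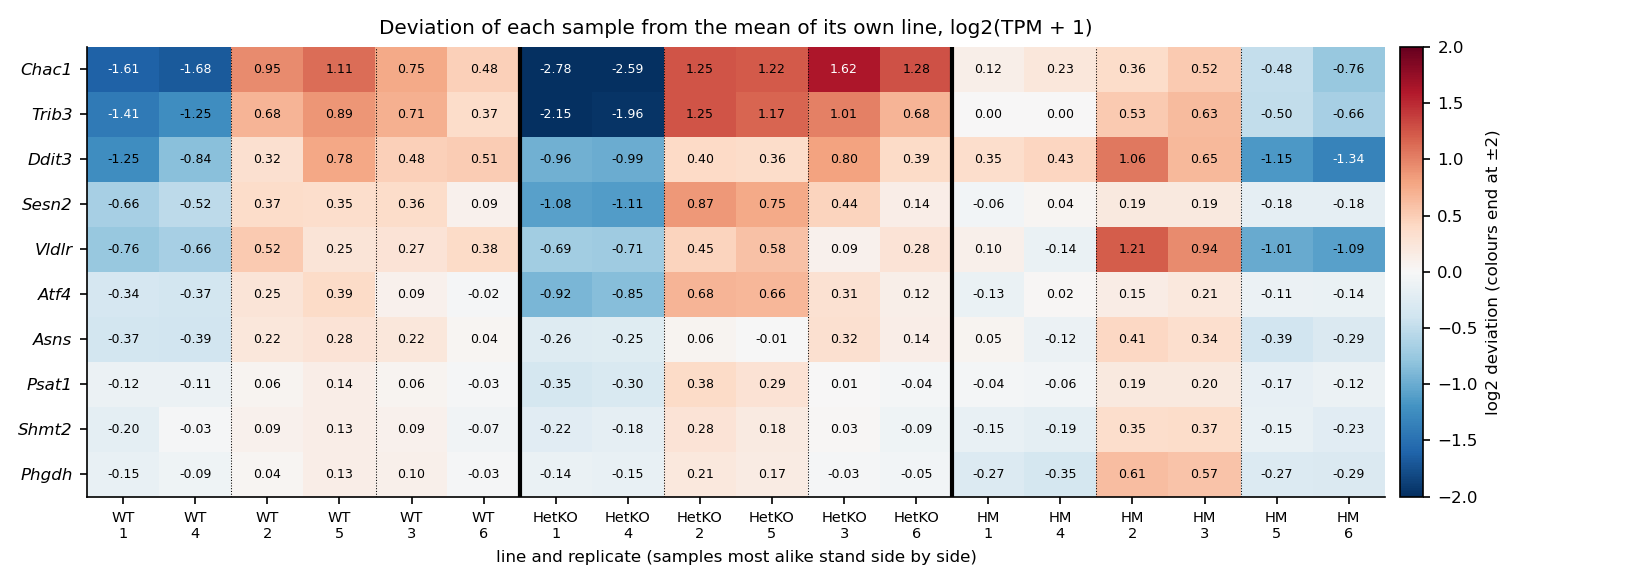
Deviation of each sample from the mean of its own line on the log2(TPM + 1) scale, with genes in rows, samples in columns, alike pairs side by side and colors that end at ±2. All 10 genes are below the line mean in WT and HetKO replicates 1 and 4 and in HM replicates 5 and 6, and above it in HM replicates 2 and 3.

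Differences between lines were tested with limma on log2(TPM + 1), a scale that understates changes of low genes, and were called at a Benjamini-Hochberg adjusted p under 0.05 over all genes tested. In bulk samples, fewer cells of a type and less RNA per cell cannot be told apart. Between HM and WT, 2 of the 10 were called, both higher in HM, against 51.4% of 14043 genes called (19.4% higher and 32.0% lower). Between HetKO and WT, Phgdh alone was called, against 10.2% of 13999 genes (3.71% higher and 6.44% lower). Between HM and HetKO, 3 were called, all lower in HM, against 34.6% of 13762 genes (14.0% higher and 20.6% lower). No member had separate sample ranges in HM and WT or in HM and HetKO, as 28.5% and 15.5% of all genes had, and Phgdh alone had them in HetKO and WT, against 8.21% of all genes in either direction and 3.07% higher in HetKO. The median log2 fold change of the members was 0.05, 0.11 and 0.01 in the 3 comparisons, beside -0.09, -0.03 and -0.05 over all genes tested. The 3 calls between HM and HetKO were marginal, and all were lost when HM replicate 4, 5 or 6 or HetKO replicate 2, 3 or 6 was left out, with limma adjusted p of 0.0524 to 0.0887. The comparisons share samples, so each is given with its own values, and a member that was not called is not thereby shown to be equal between lines.

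Atf4 was called modestly higher in HM than in WT, but not against HetKO. Its TPM was 183 to 309 in WT (median 243), 112 to 342 in HetKO (median 247) and 281 to 358 in HM (median 300.1). All HM samples lay above 4 of the 6 WT samples and overlapped WT replicates 2 and 5, while 4 HetKO samples lay below the HM range and 2 within it. Relative to WT, HM had a log2 fold change of 0.38 with a standard error of 0.13 (limma adjusted p = 0.0212). The call was lost when alike pairs were averaged (adjusted p = 0.139 from limma), without HM replicates 2 and 3 (0.30, adjusted p = 0.0966) and after quantile normalization (0.22, adjusted p = 0.195). The call was also lost with all 3 lines in 1 fit (adjusted p = 0.2 from limma) and with an unequal-variance test per gene (adjusted p = 0.055). Between HetKO and WT the difference was -0.16 (standard error 0.28, adjusted p = 0.746 from limma), and between HM and HetKO it was 0.54 (standard error 0.27, adjusted p = 0.131 from limma). The last was called without HetKO replicates 2 and 5, at 0.88 (adjusted p = 0.00971 from limma).

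Neither partner of the ATF4 feedback passed the test. Ddit3, the proapoptotic factor CHOP, had 4.96 to 23.3 TPM in WT (median 17.7), 4.53 to 18.2 in HetKO (median 13.2) and 2.49 to 17.4 in HM (median 10.6). The log2 difference of HM from WT was -0.68 with a standard error of 0.47 and overlapping samples, and limma gave an adjusted p of 0.245. Mars, the abundant gene that overlaps it on the other strand, was at 302 ± 45.3 TPM in HetKO, 414 ± 32.8 in WT and 447 ± 34.3 in HM (SD, n = 6), and its part in the Ddit3 values was not tested. Trib3 (ENSMUSG00000032715.9, chromosome 2 from 152337422 to 152344032, minus strand) had 8.28 to 44.7 TPM in WT (median 34.7), 4.36 to 55.3 in HetKO (median 41.9) and 14.1 to 36.1 in HM (median 22.9). The HM range lay inside those of WT and HetKO, and the HM difference from WT was -0.04 with a standard error of 0.42 (limma adjusted p = 0.943). The differences from HetKO to WT, with standard errors of 0.41 for Ddit3 and 0.69 for Trib3, were -0.36 and -0.05.

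Among the amino acid and glutathione genes, Asns was called in a single comparison. Asns (ENSMUSG00000029752.12, chromosome 6 from 7675169 to 7693254, minus strand) makes asparagine from aspartate and is a standard readout of ATF4. It had 185 to 297 TPM in WT (median 268), 222 to 332 in HetKO (median 269) and 149 to 260.5 in HM (median 191). HM replicates 4, 5 and 6 were lower than every WT and HetKO sample. Between HM and HetKO the log2 fold change was -0.44 (standard error 0.15, adjusted p = 0.0354 from limma), and it was not called with alike pairs averaged (adjusted p = 0.231 from limma). Relative to WT it was -0.32 with a standard error of 0.16 (limma adjusted p = 0.125), and without HM replicates 2 and 3 it was called at -0.50 (adjusted p = 0.017 from limma).

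Chac1 (ENSMUSG00000027313.3, chromosome 2 from 119351229 to 119354381, plus strand) had a median of 61.2 TPM in WT, 60.2 in HetKO and 42.5 in HM. No comparison was called, with log2 fold changes of -0.07 (HM against WT, standard error 0.50), -0.64 (HetKO against WT, standard error 0.88) and 0.57 (HM against HetKO, standard error 0.77). The sign of the last depends on the log scale, which weights HetKO replicates 1 and 4 at 2.77 and 3.31 TPM, as the mean TPM was lower in HM than in HetKO (39.3 ± 12.7 against 44.6 ± 32.9, SD, n = 6). Sesn2 (ENSMUSG00000028893.8, chromosome 4 from 132492032 to 132510501, minus strand) had 13.5 to 28.7 TPM in WT (median 25.9), 10.4 to 43.8 in HetKO (median 29.2) and 21.7 to 28.5 in HM (median 24.6). Its HM samples lay within the WT and HetKO ranges, and its log2 fold changes were 0.17, 0.10 and 0.07 with adjusted p of 0.474, 0.885 and 0.887 from limma. Both genes carry the 5p-miRNA seed matches printed above.

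**Figure D3:**
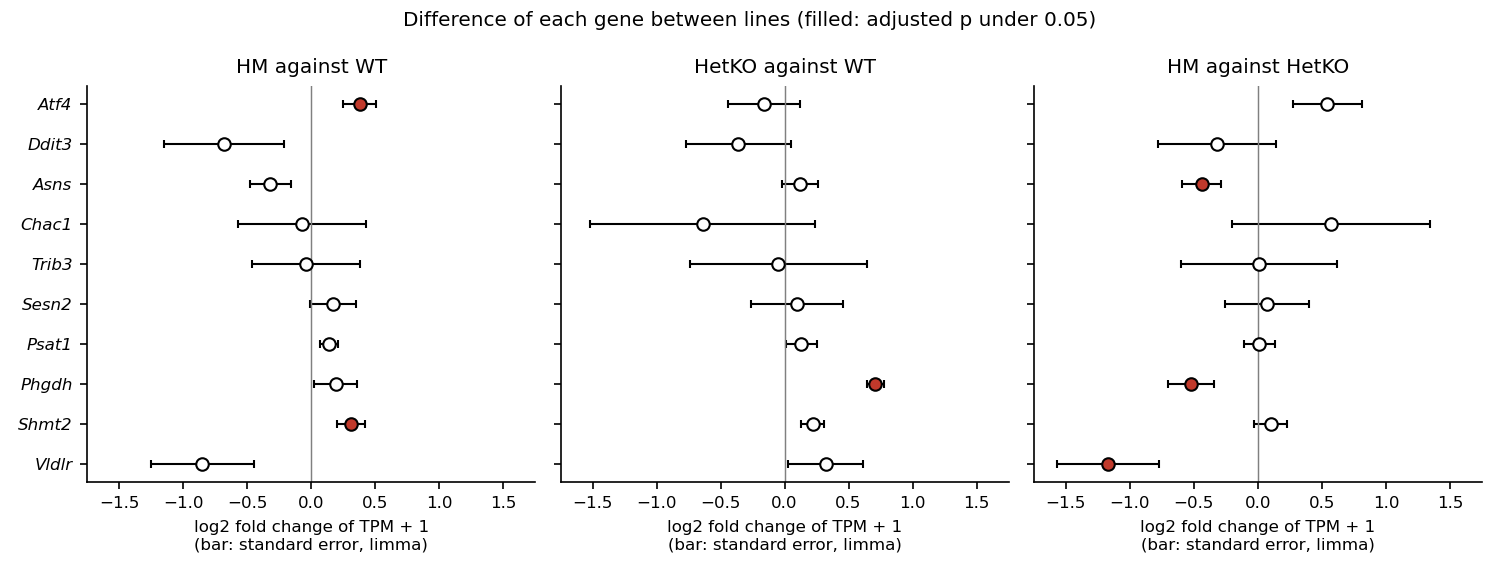
Log2 fold change of TPM + 1 for the 10 genes in HM against WT, HetKO against WT and HM against HetKO, with bars for the standard error from limma and filled points for an adjusted p under 0.05. Atf4 and Shmt2 are filled in the first panel, Phgdh in the second, and Asns, Phgdh and Vldlr in the last.

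The serine enzymes feed the glycine and one-carbon pools, and Shmt2 and Phgdh were called in different comparisons. Psat1 (ENSMUSG00000024640.9, chromosome 19 from 15904678 to 15947337, minus strand), the aminotransferase of serine synthesis, had 343 to 414 TPM in WT (median 379), 323 to 534 in HetKO (median 407) and 367 to 475 in HM (median 399). It was not called in any comparison, with log2 fold changes of 0.14, 0.13 and 0.01 and adjusted p of 0.129, 0.477 and 0.975 from limma. Median centring brought its HM against WT value to 0.32 and past the threshold. Shmt2, the mitochondrial enzyme that turns serine into glycine, had 155 to 196 TPM in WT (median 182), 178 to 252 in HetKO (median 204) and 190.03 to 287 in HM (median 200.3). HM replicates 2 and 3, at 283 and 287, stood above all other samples. Relative to WT, HM was 0.31 higher on the log2 scale with a standard error of 0.11 (limma adjusted p = 0.0335) and the value was 0.14 without HM replicates 2 and 3 (adjusted p = 0.106 from limma). Between HetKO and WT it was 0.22 (standard error 0.09, adjusted p = 0.14 from limma). The call between HM and WT was lost without HM replicate 2 or 3 or WT replicate 1, 4 or 6, with adjusted p of 0.055 to 0.07 from limma.

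Phgdh, the first enzyme of serine synthesis from glycolysis, was higher in every HetKO sample than in any WT sample. Phgdh (ENSMUSG00000053398.11) lies on chromosome 3 from 98313170 to 98339990, minus strand. Its TPM was 249 to 304 in WT (median 278) and 407 to 522 in HetKO (median 440), with no overlap. The log2 fold change was 0.71 (standard error 0.07, adjusted p = 8.17e-05 from limma), a ratio of means of 1.64, and 0.71 again with alike pairs averaged (adjusted p = 0.0842 from limma). In HM, replicates 2 and 3 had 479.7 and 467 TPM, within the HetKO range, and the 4 others had 247 to 261, within or just below the WT range. HM against HetKO gave -0.52 on the log2 scale with a standard error of 0.18 (limma adjusted p = 0.0361), and -0.81 without HM replicates 2 and 3 (adjusted p = 3.88e-05 from limma). Relative to WT the HM value was 0.19 with a standard error of 0.17 (limma adjusted p = 0.383) and turned to -0.11 without those replicates.

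The genes around Phgdh shifted in the same samples. The median log2 difference from the WT mean of 112 other genes within 5 Mb was 0.35 to 0.55 in the 6 HetKO samples, 0.52 and 0.53 in HM replicates 2 and 3, and -0.24 to -0.14 in the 4 other HM samples. Over chromosome 3 from 90 to 120 Mb, 232 genes had medians of 0.36 to 0.48 in HetKO, 0.53 and 0.54 in HM replicates 2 and 3, and -0.18 to -0.13 in the other HM samples. Phgdh itself stood at 0.55 to 0.91 in HetKO, above its neighbors in each of these samples, at 0.79 and 0.75 in HM replicates 2 and 3, and at -0.16 to -0.08 in the others. The seryl-tRNA synthetase gene Sars (chromosome 3 from 108424865 to 108445209), a listed ATF4 target, lies in the same stretch and was 0.71 higher in HetKO than in WT (standard error 0.08), the same value as Phgdh. No other member lay in such a stretch: within 5 Mb of the 9 others, the sample medians ran from -0.31 to 0.14. How much of the Phgdh difference belongs to the shift of the region was not tested.

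**Figure D4:**
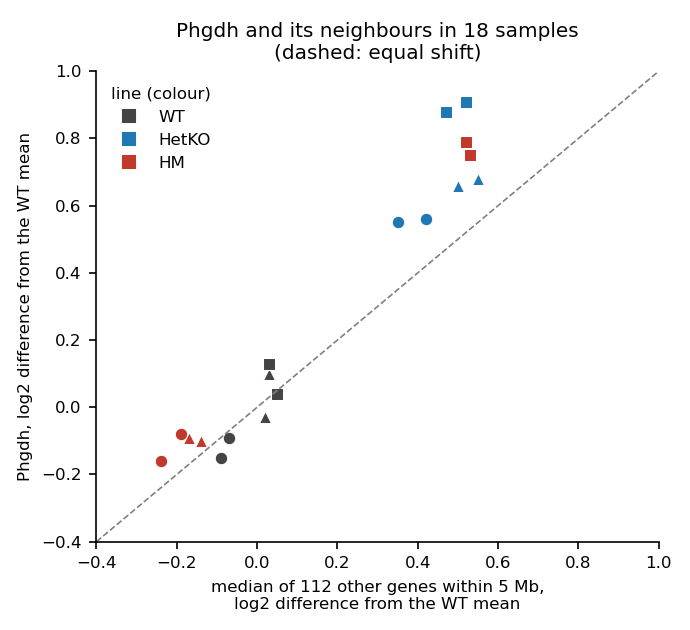
Log2 difference of Phgdh from the WT mean (vertical axis) against the median of 112 other genes within 5 Mb on chromosome 3 (horizontal axis) in the 18 samples, with a dashed line for equal shifts. The 6 HetKO samples and HM replicates 2 and 3 (red squares) form the upper group, and the WT and 4 other HM samples the lower group.

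Vldlr had the largest called decrease among the members. Vldlr (ENSMUSG00000024924.14, chromosome 19 from 27216484 to 27254231, plus strand) encodes the very low density lipoprotein receptor, which takes up lipoproteins and binds Reelin, and it is a known ATF4 target under stress. It had 10.4 to 26.6 TPM in WT (median 22.1), 13.7 to 34.9 in HetKO (median 26.4) and 4.02 to 23.7 in HM (median 9.58). HM replicates 5 and 6 had 4.30 and 4.02, replicates 1 and 4 had 10.4 and 8.71, and replicates 2 and 3 had 23.7 and 19.6, inside the WT range. The log2 fold change was -1.17 between HM and HetKO (standard error 0.40, adjusted p = 0.04 from limma), a ratio of means of 0.481, and it was not called with alike pairs averaged (adjusted p = 0.236 from limma). Relative to WT it was -0.85 with a standard error of 0.40 (limma adjusted p = 0.0944), and without HM replicates 2 and 3 it was called at -1.39 (adjusted p = 0.00421 from limma). It had 4 matches to 5p-miRNA seeds, the most of any member, in a 3′ UTR of 5091 bases where the median over the 12062 genes searched was 1358. Their part in the Vldlr values was not tested.

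The wider pathway was described by gene lists, which hold none of the 10 members and partly share genes with each other, and the genes given below as having risen or fallen passed the test. Counts after another scaling have another background: of the 14043 genes tested between HM and WT, 4508 were higher and 2879 lower after median centring, and 3632 and 3479 after quantile normalization, against 2722 and 4498 on the scale used. The 42 tested ATF4 and CHOP targets had no common direction between HM and WT, with 9 higher, 8 lower and a median of -0.01, with 17 higher and 7 lower after median centring, and 8 higher and 12 lower without HM replicates 2 and 3. Without these replicates, 2724 of all 14053 genes tested were higher and 4718 lower. With all samples, the 3 largest called changes among the 42 targets were decreases. Ddit4, an mTORC1 inhibitor induced by stress and hypoxia, fell by 2.03 on the log2 scale (131 ± 102 TPM in HM, 417 ± 154 in WT). The ER oxidase gene Ero1l fell by 1.97, and Klhl24 fell by 1.39. HM and WT samples overlapped for Ddit4, at 29.87 to 281.73 and 261.08 to 639.68 TPM, but not for Ero1l and Klhl24. In contrast, the cystine transporter Slc7a11 rose by 1.21 (9.36 ± 1.70 TPM against 3.55 ± 1.10, SD, n = 6), with no overlap of HM and WT. Between HetKO and WT, 1 of 42 rose (Sars) and 2 fell (Tfeb and Pycr1), against 3.71% higher and 6.44% lower over all genes.

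Of the 19 genes of the eIF2 arm, 9 were higher and 6 lower in HM than in WT, and 11 and 2 after median centring. Over all genes, 19.4% were higher and 32.0% lower, and 4508 and 2879 of 14043 after median centring. The eIF2 kinases moved in both directions: the heme-regulated Eif2ak1 rose by 0.78, while the double-stranded RNA sensor Eif2ak2 fell by 1.36, from 9.06 ± 0.916 to 3.08 ± 1.21 TPM (SD, n = 6). The amino acid sensor Eif2ak4, which encodes GCN2, fell by 0.58 with a standard error of 0.21 (limma adjusted p = 0.0333), and the ER kinase Eif2ak3 by 0.28. Samples overlapped for both. Eif2ak4 had 9.45 to 17.09 TPM in HM and 12.18 to 24.55 in WT, where replicates 1 and 4 lay within the HM range. Dele1, which relays mitochondrial stress, fell by 0.69. In HetKO against WT only Eif2ak3 was called, at -0.37, against 10.2% of all genes.

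Most genes of the mTORC1 amino acid sensing list were lower in HM, among them Ddit4, which is also a listed ATF4 target. Of 26 genes, 17 were lower and 2 higher in HM than in WT, with a median of -0.47, against 32.0% lower and 19.4% higher over all genes. It was 13 lower and 3 higher after median centring, 14 and 2 after quantile normalization, and 10 and 1 with alike pairs averaged. The other sestrin genes Sesn3 and Sesn1 fell by 1.49 and 0.97, from 46.7 ± 2.12 to 16.9 ± 6.81 TPM and from 35.3 ± 4.91 to 17.8 ± 3.93 (SD, n = 6), whereas Sesn2 was not called at 0.17. Without HM replicates 2 and 3, 17 were lower and 2 higher, against 4718 and 2724 of all 14053 genes. Between HM and HetKO, 13 were lower and 1 higher, led by Ddit4 at -2.21, against 20.6% lower and 14.0% higher over all genes. After median centring 8 were lower and 2 higher, against 1900 and 2961 of all 13762 genes. With alike pairs averaged 1 was lower and 0 higher, against 228 and 189 of all genes. Sesn3 was also lower in HetKO than in WT, by 0.98.

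Genes of the glutathione cycle list, which also holds the redox genes Nqo1 and Txnrd1 from outside that cycle, went the other way. Of 13 tested, 7 were higher and 0 lower in HM than in WT, against 19.4% higher and 32.0% lower over all genes. After median centring 9 were higher and after quantile normalization 8, with 0 lower, against 4508 and 3632 of all 14043 genes higher. With alike pairs averaged 4 were higher and 0 lower, against 1158 higher and 2158 lower over all genes. Nqo1 rose by 0.91 and Ggt7 by 0.90, both with overlapping HM and WT samples, and the thioredoxin reductase gene Txnrd1 by 0.76. Among 27 serine, glycine and one-carbon enzymes, 8 were higher and 5 lower, with Mat2a, which makes S-adenosylmethionine, up by 1.70 (267 ± 87.1 against 78.6 ± 10.7 TPM, SD, n = 6), Shmt1 up by 0.70 and Aldh1l1 down at -0.92. Samples overlapped for Aldh1l1, at 0.37 to 2.68 TPM in HM. Its WT replicates 1 and 4 had 7.14 and 7.22, and the other WT samples 2.36 to 2.91. After median centring, 14 of the 27 enzymes were higher and 2 lower. In HetKO against WT 2 rose and 2 fell, against 3.71% higher and 6.44% lower over all genes. They were led by Mthfd1 at -0.66, from 181 ± 20.6 to 114 ± 9.96 TPM (SD, n = 6). Of 20 synthetases, 7 were higher, led by Rars at 0.67, and 2 lower, 15 and 0 after median centring and 5 and 3 after quantile normalization, and HM replicates 2 and 3 were the 2 highest HM samples for 14 of the 20.

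Over all genes, 19.4% were higher and 32.0% lower in HM than in WT, and 4508 and 2879 of 14043 after median centring. Among 25 amino acid transporters, 8 were higher and 4 lower in HM than in WT, 14 and 1 after median centring, with Slc38a3 at -1.83 and Slc7a8 at 0.86. Of 26 ER chaperone and IRE1 or ATF6 branch genes, 10 were higher and 3 lower, 13 and 0 after median centring, and the chaperone BiP (Hspa5) rose by 0.76, from 236 ± 70.8 to 388 ± 37.4 TPM. Hspa5 did not follow the low pair of the members, as WT replicates 1 and 4 had 312 and 338 TPM, its highest WT values. Of 17 further tribbles and bZIP genes, 8 were higher and 2 lower. Trib1 and Trib2 were among them, at 0.54 and 0.80, where Trib3 was at -0.04. Of 13 lipoprotein receptor and Reelin pathway genes, 5 were lower and 2 higher, with Lrp2 at -0.76 and Lrp1 at -0.57, and the counts were 3 and 3 after median centring.

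**Figure D5:**
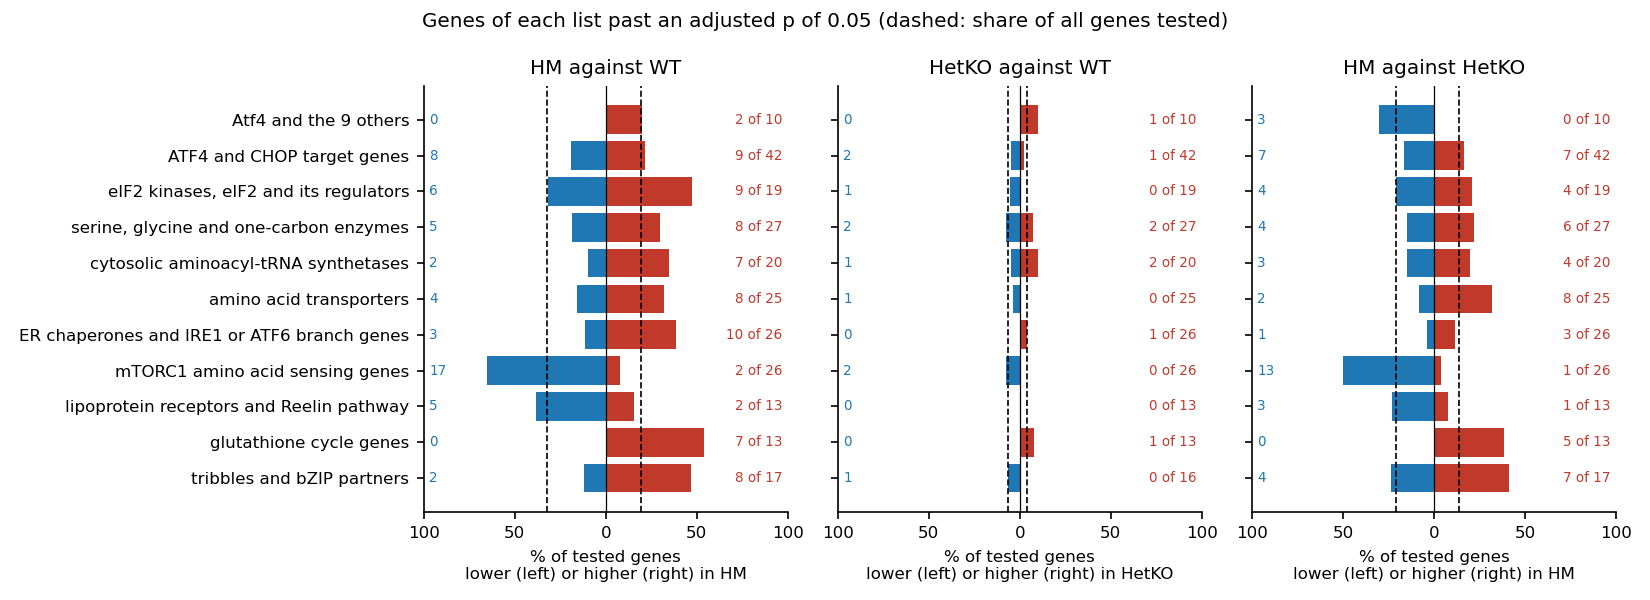
Percent of the tested genes of each list that were lower (blue, to the left) or higher (red, to the right) at an adjusted p under 0.05 in the 3 comparisons, with the counts printed at the sides and dashed lines for the shares of all genes. The mTORC1 list extends furthest to the left with 17 of 26. The glutathione cycle list has 7, 1 and 5 called to the right and 0 to the left. Of the 10 members 2, 1 and 0 are called to the right and 0, 0 and 3 to the left.

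The genes most like the members over the 18 samples were then listed among 9634 genes whose mean reached 5 TPM. Members and genes with model names (Gm or Rik) were left out of these. For Atf4 they were Fzd10 (Pearson's r = 0.926, Spearman's rho = 0.868), Mtfr1 (0.906 and 0.849), Pkdcc (0.900 and 0.810), Shisa3 (0.896 and 0.868) and Apela (0.894 and 0.845). For the mean of the 10 scaled members they were Echdc2 (0.947 and 0.934), Slc3a2 (0.934 and 0.938), Gpx4-ps2 (0.931 and 0.876), Atf3 (0.922 and 0.820) and Cars (0.912 and 0.856). Slc3a2, the shared heavy chain of amino acid transporters, ran from 161 to 258 TPM, Atf3 from 1.33 to 14.0 and the cysteinyl-tRNA synthetase gene Cars from 98.8 to 166. Gpx4-ps2 is a pseudogene whose reads can be shared with Gpx4, so its values are uncertain. The points of these correlations share libraries and alike pairs, and they are given as a description with no test.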

How the data were processed

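Poly(A) mRNA of the 3 P19 lines, 6 samples each, was sequenced as stranded paired-end libraries. TPM of 55450 genes, rounded to 2 decimals, were deposited by the authors, who had joined the read pairs in BBMerge and run RSEM. The submitters' processing notes also name cutadapt, STAR and mm10, with no role. TPM keep no depth, so no interval for counting error is given, and precision rests on the spread between samples. All 55450 identifiers matched GENCODE M21 (GRCm38), the source of positions and 3′ UTRs. Promoter windows and mature miRNAs were from RefSeq, which held an entry for each of the 10 members and 10 miRNAs.

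For each comparison, genes whose 12 samples averaged 1 TPM or more entered a limma 3.58.1 fit (R 4.3.3) of log2(TPM + 1), with a variance prior following the mean and Benjamini-Hochberg adjustment at 0.05. The code was tested on simulated data. Python 3.11.15, numpy 2.4.6, pandas 2.3.3 and scipy 1.17.1 did the rest. The members and gene lists, and the alike pairs, were chosen with earlier results of these data known. Named genes were the members, up to 3 genes with the largest called change per list and comparison, Dicer1, and the 5 genes most like Atf4 and the members' mean. Slc7a11 among the targets, Eif2ak3, Eif2ak4, Trib1 and Trib2, the replicates of Hspa5, and the single genes named as examples of markers were picked after their values were seen. Replicate numbers come from the labels. The correlation of same-numbered samples' deviations over all genes tested averaged 0.005, 0.062 and 0.021 in the 3 comparisons. Other differences between the samples of a line enter this mean, so it cannot tell whether the numbers mark shared cultures or runs. The samples were treated as unpaired.

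Alternatives were a pseudocount of 0.1, no filter or a minimum of 5 TPM, median centring, quantile normalization, all 3 lines in 1 fit, the replicate number as a block, a 1.5-fold limit, a per-gene test with unequal variances, means of alike pairs, removal of HetKO replicates 2 and 5 or HM replicates 2 and 3, and removal of each sample in turn. The miRNA-seq, AGO2 immunoprecipitation and CLASH libraries of the study were not analysed here.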

Additional observations from a re-analysis of the deposited data

How the results depend on the processing

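Of 670 values of single members under the alternatives, 560 kept their direction and side of the threshold, 54 kept the direction but lost the call, 8 gained a call and 48 changed direction. Between HM and WT, 2 members passed with the settings used. The count was 1 with no filter on low TPM, 1 after quantile normalization (Asns, lower), 1 with all 3 lines in a single fit, and 0 with an unequal-variance test per gene, with alike pairs averaged or with a 1.5-fold limit, and it was 1 to 2 when each sample was left out in turn. Between HetKO and WT, 1 passed, and the count was 2 with the replicate block and 0 with alike pairs averaged. Between HM and HetKO, 3 passed. The count was 0 with no filter, after median centring, with the unequal-variance test or with alike pairs averaged, 1 without HetKO replicates 2 and 5 (Atf4), 1 with a 1.5-fold limit, and 0 to 3 when each sample was left out. Over all genes, alike pairs as replicates left 3316, 34 and 417 calls in the 3 comparisons and a 1.5-fold limit 3008, 666 and 2099. The unequal-variance test left 852 for HetKO against WT.

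With the replicate number as a block, 6889, 1206 and 4200 genes and 2, 2 and 3 members passed. Same-numbered samples correlated best with each other for 1, 3 and 1 of the 6 numbers, and the labels state no basis for this block. It changed no other call of a member than that of Shmt2 between HetKO and WT, which passed at 0.22 (limma adjusted p = 0.043).

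Scaling moved the balance of calls. The share of called genes that were higher was 37.7% between HM and WT, 61.0% after median centring and 51.1% after quantile normalization. It was 36.5%, 50.7% and 48.1% between HetKO and WT, and 40.4%, 60.9% and 49.3% between HM and HetKO. Centring took the median over all genes (log2) from -0.09 to 0.08 for HM against WT and from -0.05 to 0.07 for HM against HetKO.

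The changes of direction were in values that were not called in their comparison. Between HM and WT they were Chac1 at 0.10 and Trib3 at 0.14 after centring, Trib3 at 0.09 and Psat1 at -0.02 after quantile normalization, and Phgdh at -0.11 without HM replicates 2 and 3. Between HetKO and WT they were Trib3 at 0.00 after centring, and Sesn2 at -0.31 and Psat1 at -0.03 without HetKO replicates 2 and 5. Between HM and HetKO they were Psat1 at -0.07 after quantile normalization and, without HM replicates 2 and 3, Trib3 at -0.28, Sesn2 at -0.03, Psat1 at -0.09 and Shmt2 at -0.08. With each sample left out in turn, values ran from -0.29 to 0.03 for Atf4, -0.08 to 0.32 for Sesn2 and -0.34 to 0.38 for Trib3 between HetKO and WT. They ran from -0.41 to 0.15 for Chac1 and -0.32 to 0.14 for Trib3 between HM and WT, and from -0.06 to 0.08 for Psat1, -0.15 to 0.24 for Sesn2 and -0.42 to 0.26 for Trib3 between HM and HetKO. The call of Phgdh between HetKO and WT held with each sample left out, and that of Atf4 between HM and WT did too. Shmt2 lost its call between HM and WT without HM replicate 2 or 3 or WT replicate 1, 4 or 6, at 0.24 to 0.31. Leaving out HM replicate 4, 5 or 6 or HetKO replicate 2, 3 or 6 ended all 3 calls between HM and HetKO, and leaving out HM replicate 1 or HetKO replicate 5 left that of Asns. The cause of these changes was not tested, apart from the fewer samples or genes that an alternative itself uses. Depth could not be assessed from TPM.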
